A study of Mus musculus with 6 samples.

Results

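The genes of the bone morphogenetic protein (BMP) and transforming growth factor beta (TGF-beta) pathways described here were chosen by symbol: the BMP and growth differentiation factor (GDF) ligands, the TGF-beta and activin ligands, their receptors, the Smad signal transducers, the Id target genes, and the antagonists Nog, Chrd, Fst and Grem1. The rule found 53 genes of the 39179 in the count table, and Gdf1, which it also names, was not analysed here. Of the 53 genes, 35 had at least 30 counts summed over the 6 libraries, and 33 of these passed the low-count filter and were tested. The samples were 3 libraries of cells stably expressing the G392E variant of neuroserpin (G392E-NS) and 3 libraries of cells stably expressing green fluorescent protein (GFP). All 6 came from neural progenitor cells of the E13.5 cerebral cortex of CD1 mice, which were differentiated in culture before RNA extraction, and all carried a stably expressed transgene. Neuroserpin is a protease inhibitor of neurons, and its G392E variant polymerises in the endoplasmic reticulum and causes an inherited dementia. The comparison asks how the pathway's genes differ between G392E-NS and GFP cells. Cells with wild-type neuroserpin were not analysed here, and the labels do not say how many cultures or clones stand behind each group, so the p-values cover only the spread between these libraries.

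Ligands of this family bind a complex of type I and type II serine/threonine kinase receptors. The BMP branch then phosphorylates Smad1, Smad5 and Smad9, and the TGF-beta and activin branch phosphorylates Smad2 and Smad3. Both use the common partner Smad4, and Smad6 and Smad7 are inhibitory members that dampen the signal. Id genes are direct targets of BMP signalling. Id proteins bind bHLH transcription factors without binding DNA themselves and so hold back neuronal differentiation, and BMP signals favour astrocytes over neurons in late progenitors. Noggin, chordin, follistatin and gremlin are secreted proteins that bind ligands and keep them from their receptors.

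The libraries held 15507487 to 24835835 counts, and the first principal component, with 61.7% of the variance, separated the G392E-NS from the GFP libraries. The mouse neuroserpin gene Serpini1 had a log2 fold change of 0.29 (SE 0.19, edgeR adjusted p = 0.419). The species of the introduced neuroserpin is not in the labels, so these counts do not show its expression. Values below are CPM, each count divided by the size of its library after TMM scaling. Each fold change sets G392E-NS libraries over GFP libraries.

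The 250 bases before the transcription start are shown for an Id gene, the transcriptional readout of the BMP branch, and for Tgfb2, the ligand with the largest fold change above 0 (RefSeq, GRCm38.p6), 5′ to 3′ on the gene's strand. Capitals mark GGCGCC, a GC-rich box bound by BMP-branch Smads that reads the same on both strands, CAGAC or its reverse complement GTCTG, the core Smad binding element, and TATAAA, searched on the gene's strand alone. The windows are chr13:48260866-48261115, plus strand for Id4 and chr1:186705990-186706239, minus strand for Tgfb2.
Id4: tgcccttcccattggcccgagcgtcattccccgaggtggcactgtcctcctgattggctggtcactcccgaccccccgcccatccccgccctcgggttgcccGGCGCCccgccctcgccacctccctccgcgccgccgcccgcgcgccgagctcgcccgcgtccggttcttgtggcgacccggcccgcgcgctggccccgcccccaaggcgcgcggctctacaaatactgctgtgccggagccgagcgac
Tgfb2: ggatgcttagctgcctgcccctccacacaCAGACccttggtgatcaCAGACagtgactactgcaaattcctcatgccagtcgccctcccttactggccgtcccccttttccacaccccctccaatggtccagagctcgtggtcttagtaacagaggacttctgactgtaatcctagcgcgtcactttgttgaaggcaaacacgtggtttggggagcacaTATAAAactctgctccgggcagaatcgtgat

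Id4 held 1 GGCGCC, which began 148 bases before the RefSeq start, and no CAGAC or GTCTG. Its window ends at 48261115, short of the GENCODE start of Id4 at 48261228, so the box lies farther from that start. Tgfb2 held 2 copies of CAGAC, which began 221 and 204 bases before the start, and a TATAAA that began 31 bases before it. No matches overlapped in these windows. Over the 32851 windows of 250 bases in the table, 9.59% held GGCGCC, 42.2% held CAGAC or GTCTG and 7.59% held TATAAA. Of the 36 pathway genes with a window, 9 (25%) held GGCGCC, 15 (41.7%) held CAGAC or GTCTG and 4 (11.1%) held TATAAA. These 36 include genes that were not tested between the groups. The windows of the Id genes differed in this: Id2 held GGCGCC and no CAGAC or GTCTG, as Id4 did. Id3 held CAGAC or GTCTG and no GGCGCC, and Id1 had no window. The windows of Id2 and Id3 overlap transcribed, untranslated sequence annotated in GENCODE, so they are not wholly upstream of that annotation's starts and are not shown. A match of letters is not a site of binding.

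No pathway gene passed the test between G392E-NS and GFP libraries. By edgeR's quasi-likelihood test with a threshold of 0.05 on the adjusted p, 0 of the 33 were higher and 0 were lower, where 6.15% of the 13775 genes tested were called, 4.79% as higher and 1.36% as lower. An unadjusted p under 0.05 was found for 7 of the 33, or 21.2%, against 22.4% of all genes tested. DESeq2 called 1 higher (Tgfb2) and 1 lower (Bmp3), where 8.96% of its genes were called, and limma-voom called 0, where 5.01% were. With no low-count filter 3 were called (Tgfb2, Bmp3 and Gdf6; 6.81% of all), with length and GC trends removed 1 (Gdf6; 7.03%) and without G392E-NS replicate 1, 3 (Tgfb2, Bmp3 and Tgfbr1; 9.86%). With at least 30 counts as the filter (5.94%) and with the replicate block (1.94%) 0 were called. The smallest adjusted p were 0.0663 for Gdf6, 0.0677 for Tgfb2 and 0.117 for Bmp3, all ligands, and that of the other 30 was at least 0.136.

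The precision differed widely between members. The 95% interval of the fold change lay wholly within 1 log2 unit of 0, that is within a 2-fold difference, for 22 of the 33, so that a larger difference lay outside their intervals. For the other 11 the interval reached past it on at least 1 side. The median absolute log2 fold change was 0.22 among the members and 0.19 among all genes tested, and 2 members, against 6.94% of all genes, differed by at least 2-fold. Fold changes were above 0 for 9 members and below 0 for 24, with a median of −0.13, whereas 49.3% of all genes tested were above 0 and their median was −0.0047. By role, the median log2 fold change was −0.20 over 7 ligands, −0.072 over 10 receptors, −0.17 over 8 Smads, −0.34 over 3 antagonists and 0.032 over the 4 Id genes. In 6 members the libraries of the groups did not overlap, Tgfb2 and Bmpr1b with the G392E-NS libraries higher and Bmp3, Gdf6, Smad4 and Tgfbr1 with them lower. This is 18.2% of the members tested, against 28.6% of all genes tested (15.7% with the G392E-NS libraries higher and 12.9% with them lower).

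**Figure D1:**
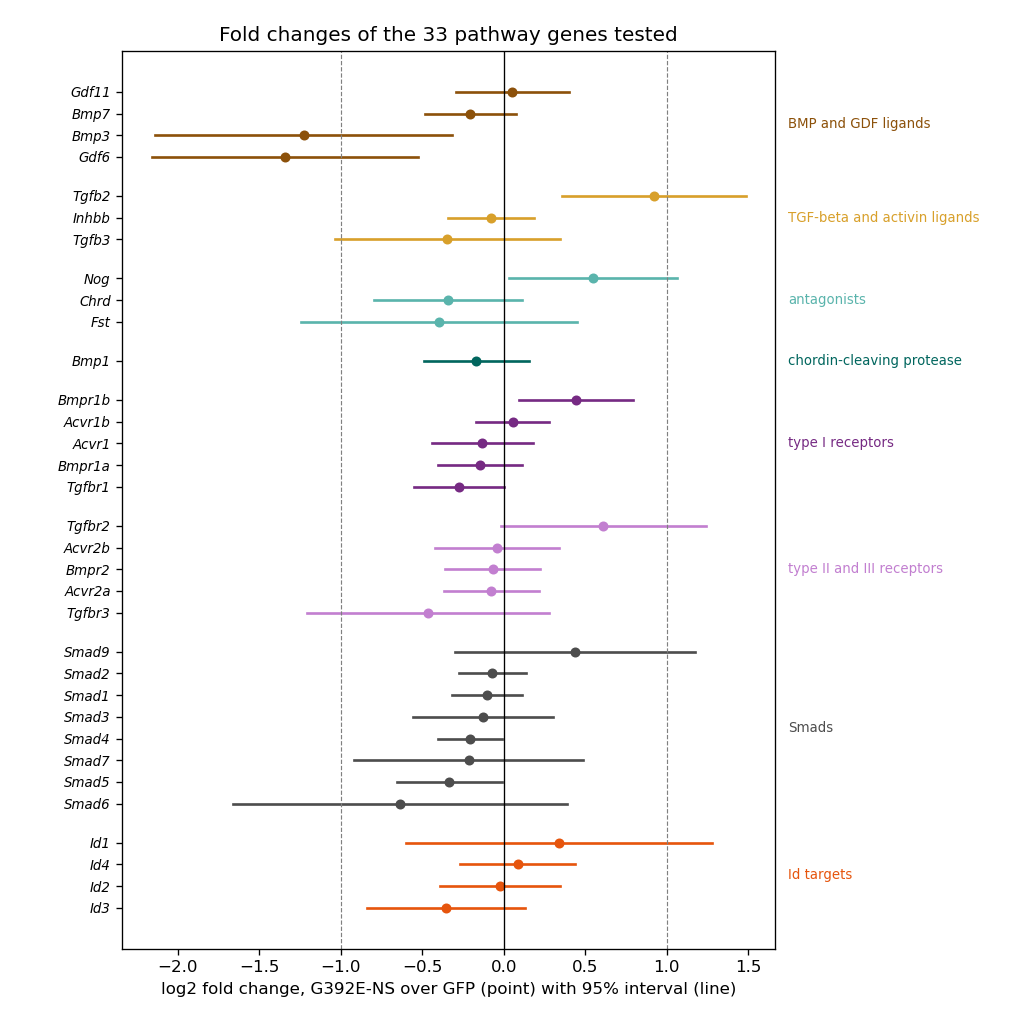
Log2 fold change (G392E-NS over GFP, x axis) of each of the 33 pathway genes tested, grouped by role. Points are estimates, lines are 95% intervals, and dashed lines mark a 2-fold difference. The intervals of 7 genes exclude 0, and none of the 33 passed after adjustment over all genes.

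**Figure D2:**
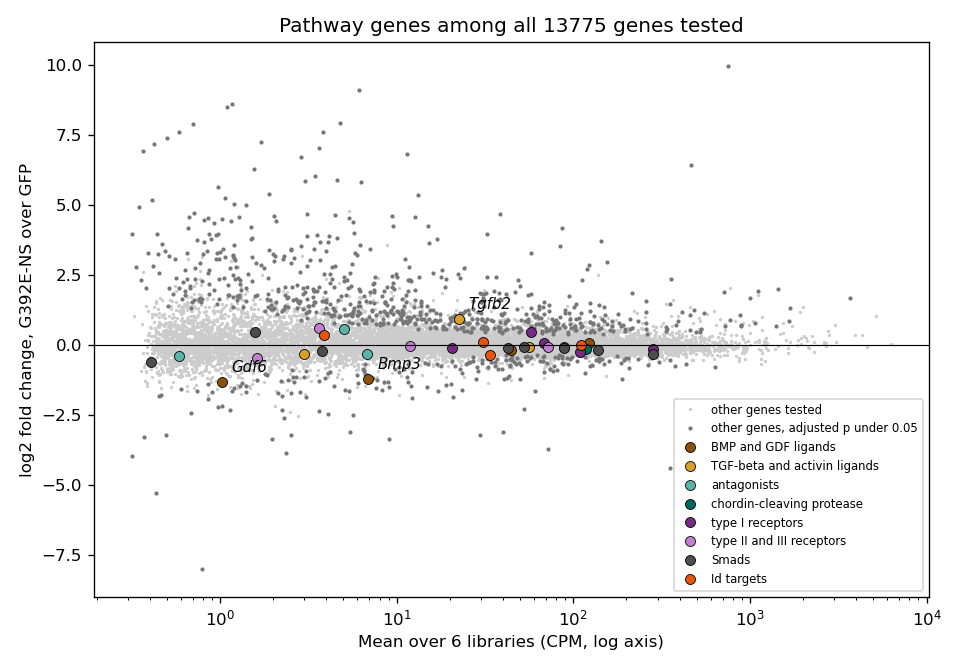
Log2 fold change (y axis) against mean level in CPM (x axis, log scale) for all 13775 genes tested, with pathway genes as large points coloured by role and other called genes in dark grey. Tgfb2 (0.92), Bmp3 (−1.23) and Gdf6 (−1.34) lie farthest from 0 among the pathway genes.

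Among BMP and GDF ligands, only Gdf11, Bmp7, Bmp3 and Gdf6 had enough counts to be tested. Gdf11, an activin-class ligand that restrains neurogenesis (ENSMUSG00000025352, GRCm38 chromosome 10, 128882295 to 128891718), had the highest level per kilobase of exon of all ligands. It had 132, 126 and 115 CPM in G392E-NS libraries, against 112, 98.8 and 149 CPM in GFP libraries. The groups overlapped, with GFP replicate 3 the highest of all and GFP replicate 2 the lowest, and the log2 fold change was 0.052 (95% interval −0.29 to 0.40, adjusted p = 0.873). Bmp7, a BMP of the developing brain, had 47.8, 35.3 and 40.2 CPM in G392E-NS libraries and 47.8, 48.7 and 45.6 CPM in GFP libraries (log2 fold change −0.20, 95% interval −0.49 to 0.077, adjusted p = 0.365).

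The lower-level ligands Gdf6 and Bmp3 had the most negative fold changes of the members tested. Gdf6, a BMP ligand that patterns skeleton and eye (ENSMUSG00000051279, chromosome 4, 9844372 to 9862345), had 10, 12 and 13 counts in G392E-NS libraries and 22, 38 and 28 counts in GFP libraries. This is 0.416, 0.509 and 0.848 CPM against 1.27, 1.91 and 1.20 CPM, and every G392E-NS library lay below every GFP library. Its log2 fold change of −1.34 (SE 0.35, 95% interval −2.16 to −0.53) did not pass (adjusted p = 0.0663). Bmp3, an atypical family member that opposes BMP signals (ENSMUSG00000029335, chromosome 5, 98854415 to 98884396, named here after its values were seen), had 6.28, 1.82 and 4.24 CPM in G392E-NS libraries, against 9.68, 11.8 and 7.49 CPM in GFP libraries. The groups did not overlap, G392E-NS replicate 2 was lowest, and the log2 fold change was −1.23 (SE 0.40, 95% interval −2.14 to −0.32, adjusted p = 0.117). Without G392E-NS replicate 1 Bmp3 passed, at −1.72 (adjusted p = 0.042), and without G392E-NS replicate 2 it stood at −0.85 (adjusted p = 0.153). Gdf6 passed with no low-count filter (adjusted p = 0.0301) and after length and GC trends were taken out (adjusted p = 0.0492).

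Of the TGF-beta and activin ligands, Inhbb had the highest level per kilobase and Tgfb2 the largest difference. Tgfb2 (ENSMUSG00000039239, chromosome 1) is the isoform whose promoter is shown above. It had 530, 977 and 381 counts in G392E-NS libraries and 279, 256 and 415 counts in GFP libraries, or 22.0, 41.4 and 24.8 CPM against 16.1, 12.8 and 17.8 CPM. All 3 G392E-NS libraries lay above all 3 GFP libraries, with replicate 2 far above the other two. The log2 fold change of 0.92 (SE 0.25, 95% interval 0.36 to 1.49) did not pass (adjusted p = 0.0677). Without G392E-NS replicate 2 the log2 fold change was 0.59 (adjusted p = 0.105), and without G392E-NS replicate 1 it was 1.07 and passed (adjusted p = 0.0359). Gm29491, on the opposite strand, overlaps an exon of Tgfb2 and its promoter window, and with no strand setting known the reads of both genes cannot be told apart.

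Inhbb encodes the activin beta-B subunit (ENSMUSG00000037035, chromosome 1). It had 51.8, 51.4 and 60.3 CPM in G392E-NS libraries and 62.7, 59.2 and 50.5 CPM in GFP libraries. The groups overlapped, and the log2 fold change of −0.077 had a 95% interval of −0.34 to 0.19 (adjusted p = 0.741). Tgfb3 averaged 2.62 ± 0.545 CPM in G392E-NS libraries and 3.34 ± 1.08 CPM in GFP libraries (mean ± SD, n = 3 each), with an edgeR adjusted p of 0.536. Tgfb1 had 30 counts in all, 11 of them in G392E-NS and 19 in GFP libraries, and fell under the low-count filter. As a share of the summed level of all ligands per kilobase in a library, Gdf11 made up 50.3% ± 1.95 in G392E-NS and 48.4% ± 6.73 in GFP libraries. Tgfb2 made up 8.38% ± 3.04 in G392E-NS and 4.41% ± 0.400 in GFP libraries (mean ± SD, n = 3 each).

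Among the antagonists, Nog had both the highest level per kilobase and the smallest p. Noggin (ENSMUSG00000048616, chromosome 11) binds BMP ligands outside the cell. Its gene had 6.69, 4.67 and 6.52 CPM in G392E-NS libraries, against 4.03, 3.36 and 4.79 CPM in GFP libraries. G392E-NS replicate 2 lay just below GFP replicate 3, so the groups overlapped, and the log2 fold change of 0.55 (SE 0.22, 95% interval 0.033 to 1.06) did not pass (adjusted p = 0.200). Chrd had 7.36, 4.96 and 5.67 CPM in G392E-NS libraries and 8.06, 8.08 and 6.72 CPM in GFP libraries (adjusted p = 0.351), and its exons overlap those of Thpo. Fst, which binds activins, had under 1 CPM in every library. Bmp1, a metalloprotease that cleaves chordin and procollagens and is no ligand despite its name (ENSMUSG00000022098, chromosome 14), had 108, 105 and 122 CPM in G392E-NS libraries and 136, 140 and 99.7 CPM in GFP libraries (log2 fold change −0.17, 95% interval −0.49 to 0.16, adjusted p = 0.518). GFP replicate 3 was the lowest of the 6 and the other GFP libraries the highest.

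Receptors had smaller standard errors (median 0.131 on the log2 scale) than Smads (0.164), Id genes (0.186), antagonists (0.224) and ligands (0.245). The BMP type I receptor gene Bmpr1a (ENSMUSG00000021796, chromosome 14, 34410734 to 34503341) had the highest level of them per kilobase. It had 274, 299 and 232 CPM in G392E-NS libraries and 303, 292 and 297 CPM in GFP libraries. The groups overlapped, G392E-NS replicate 3 was lowest, and the log2 fold change was −0.15 (95% interval −0.41 to 0.11, adjusted p = 0.473). Bmpr1b, the second type I receptor dedicated to BMPs (ENSMUSG00000052430, chromosome 3, 141837136 to 142169425), had 60.6, 81.8 and 55.9 CPM in G392E-NS libraries, against 50.9, 43.7 and 51.4 CPM in GFP libraries. The G392E-NS libraries all lay above the GFP libraries, but the log2 fold change of 0.44 (SE 0.15, 95% interval 0.093 to 0.79) did not pass (adjusted p = 0.136). Without G392E-NS replicate 2 it was 0.27 (adjusted p = 0.280).

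A ratio of both receptors within a library does not depend on the scaling between libraries. Per 100 counts of Bmpr1a there were 22.1, 27.4 and 24.1 counts of Bmpr1b in G392E-NS libraries, against 16.8, 15.0 and 17.3 in GFP libraries. This ratio was chosen after the values were seen and is given without a test, and it is a ratio of counts, not of levels per length. Other count ratios taken, among them those whose groups overlapped, are given with the last observations below.

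The TGF-beta type I receptor gene Tgfbr1 had 116, 96.5 and 84.7 CPM in G392E-NS libraries and 122, 116 and 121 CPM in GFP libraries. Its groups were apart by less than 1 CPM (115.8 against 116.4), and the log2 fold change was −0.27 (SE 0.12, adjusted p = 0.223). It passed without G392E-NS replicate 1, at −0.42 (adjusted p = 0.0369). The activin type I receptor gene Acvr1b and the BMP-responsive Acvr1 had adjusted p of 0.772 and 0.608, with 95% intervals of −0.17 to 0.28 and −0.44 to 0.18. Of the type II receptors, Acvr2a, which binds activins and BMPs, had the highest level per kilobase, with 83.2, 66.6 and 61.4 CPM in G392E-NS libraries and 76.3, 68.3 and 78.3 CPM in GFP libraries (log2 fold change −0.076, 95% interval −0.37 to 0.22, adjusted p = 0.768). Its exons overlap those of Orc4.

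Tgfbr2, the type II receptor that TGF-beta ligands need, was low in both groups (ENSMUSG00000032440, chromosome 9, 116084293 to 116175360). It had 3.12, 5.09 and 4.96 CPM in G392E-NS libraries, against 3.11, 3.36 and 2.14 CPM in GFP libraries. G392E-NS replicate 1 lay among the GFP libraries, and the log2 fold change of 0.61 (SE 0.27, 95% interval −0.018 to 1.24) did not pass (adjusted p = 0.235). Per kilobase of exon its level was 0.536 ± 0.135 CPM in G392E-NS and 0.351 ± 0.0789 CPM in GFP libraries, beside 15.1 ± 2.40 CPM in G392E-NS and 18.3 ± 0.470 CPM in GFP libraries for Tgfbr1 (mean ± SD, n = 3 each). Bmpr2 and Acvr2b, the remaining type II receptors, had adjusted p of 0.798 and 0.916, and Tgfbr3, a co-receptor that presents TGF-beta ligands, of 0.435.

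Of the Smads, 7 of 8 had a fold change below 0 and none passed. Smad5, a BMP-branch Smad (ENSMUSG00000021540, chromosome 13, 56703010 to 56742377), had the highest level per kilobase, with 280, 230 and 244 CPM in G392E-NS libraries and 349, 342 and 258 CPM in GFP libraries. G392E-NS replicate 1 lay above GFP replicate 3, so the groups overlapped, and the log2 fold change was −0.33 (SE 0.14, 95% interval −0.66 to −0.0081, adjusted p = 0.213). Smad4, the common partner, had 136, 122 and 127 CPM in G392E-NS libraries, against 148, 143 and 153 CPM in GFP libraries. The groups did not overlap, and the fold change was small and tightly estimated, at −0.21 (SE 0.085, 95% interval −0.40 to −0.013, adjusted p = 0.200).

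Smad1, Smad2 and Smad3 had log2 fold changes of −0.10, −0.069 and −0.13 with adjusted p of 0.557, 0.701 and 0.738. Smad1, Smad5 and Smad9 together made up 78.4% ± 1.47 of the summed level per kilobase of the 5 receptor-activated Smads in G392E-NS libraries and 80.3% ± 0.310 in GFP libraries (mean ± SD, n = 3 each). Smad9 was low, at 1.82 ± 0.280 CPM in G392E-NS and 1.34 ± 0.547 CPM in GFP libraries, and was the Smad with a fold change above 0 (0.44, edgeR adjusted p = 0.456). The inhibitory Smad7, itself a target of the pathway, had 4.78, 3.73 and 1.96 CPM in G392E-NS libraries and 4.20, 3.66 and 4.45 CPM in GFP libraries (adjusted p = 0.724). Smad6, the other inhibitory member, had 5 to 8 counts in each G392E-NS library and 8 to 11 in each GFP library (adjusted p = 0.439).

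The Id genes, whose transcription follows BMP signals, overlapped between the groups in all 4 cases. Id2 (ENSMUSG00000020644, chromosome 12, 25093799 to 25097140) had 122, 110 and 97.4 CPM in G392E-NS libraries, against 94.6, 100.3 and 140 CPM in GFP libraries. GFP replicate 3 was the highest and GFP replicate 1 the lowest, and the log2 fold change was −0.023 (SE 0.16, 95% interval −0.39 to 0.34, adjusted p = 0.951). Id3 (ENSMUSG00000007872, chromosome 4, 136143497 to 136145755) had 29.7, 21.8 and 37.9 CPM in G392E-NS libraries and 41.5, 42.4 and 30.2 CPM in GFP libraries. GFP replicate 3 lay between G392E-NS libraries, and the log2 fold change of −0.35 (SE 0.21, 95% interval −0.84 to 0.13) did not pass (adjusted p = 0.365).

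Id4, which is prominent in neural progenitors (ENSMUSG00000021379, chromosome 13, 48261228 to 48266026), had 32.9, 36.8 and 25.9 CPM in G392E-NS libraries and 27.8, 27.9 and 34.4 CPM in GFP libraries. The GFP libraries lay within the range of the G392E-NS libraries, with a log2 fold change of 0.087 (SE 0.15, 95% interval −0.27 to 0.44, adjusted p = 0.782). Exons of A330033J07Rik, on the opposite strand, and of Gm49291 overlap those of Id4. Id1, the Id gene with the widest interval (ENSMUSG00000042745, chromosome 2, 152736251 to 152737410), had 5.45, 1.87 and 5.67 CPM in G392E-NS libraries, against 3.34, 4.27 and 2.61 CPM in GFP libraries. G392E-NS replicate 2 was the lowest of the 6 libraries while the other two were the highest, and the log2 fold change of 0.34 (SE 0.41, 95% interval −0.60 to 1.28) did not pass (adjusted p = 0.667). A 2-fold difference thus lay outside the interval for Id2, Id3 and Id4 and inside it for Id1. Summed per kilobase, the 4 Id genes had 79.9, 68.6 and 72.7 CPM in G392E-NS libraries and 72.1, 75.7 and 85.4 CPM in GFP libraries. Id2 supplied 61.2% ± 5.64 of that sum in G392E-NS and 58.4% ± 7.56 in GFP libraries (mean ± SD, n = 3 each).

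**Figure D3:**
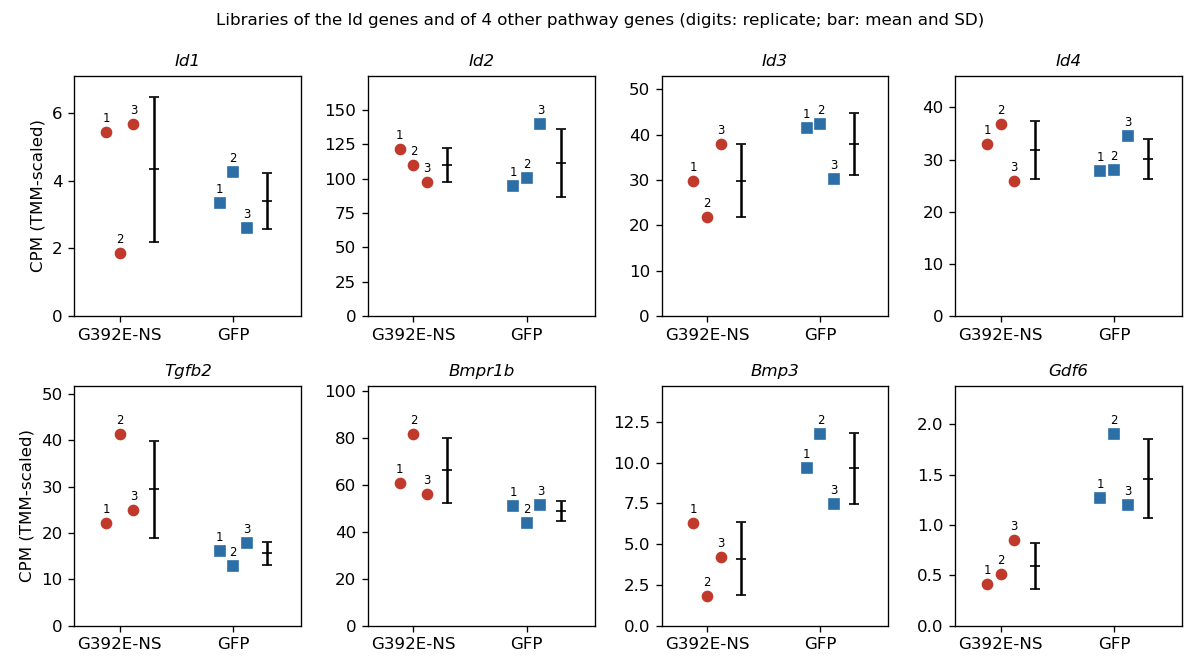
CPM (y axis, from 0) in each library for the 4 Id genes and for Tgfb2, Bmpr1b, Bmp3 and Gdf6, with G392E-NS libraries as red circles and GFP libraries as blue squares, digits giving the replicate and bars the mean and SD. The groups overlap for each Id gene and do not overlap for the lower 4 genes, whose adjusted p were 0.0663 to 0.136.

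Ordered by level per kilobase of exon, the pathway genes with at least 30 counts ran from Id2 to Tgfb1 at 0.0501 CPM per kilobase. In the mean of the 6 libraries the highest were Id2 at 45.4, Bmpr1a at 44.5, Smad5 at 38.3, Smad4 at 37.2 and Gdf11 at 30.1 CPM per kilobase. The libraries of neighbours in the order overlapped for 31 of 34 pairs among the 35 genes with at least 30 counts. They were apart between Gdf11 and Id3 (18.9 CPM per kilobase), between Nog (2.96) and Chrd (1.09), and between Tgfbr3 (0.249) and Fst (0.128). The middle of the order held, from high to low, Id3, Tgfbr1, Acvr1b, Smad1, Bmp1, Inhbb, Acvr2a and Bmp7, between 18.9 CPM and 11.0 CPM per kilobase. Of the 53 genes, 24 reached 1 CPM per kilobase. Summed per kilobase, ligands had 60.8 ± 2.01 CPM in G392E-NS and 60.6 ± 4.68 CPM in GFP libraries, and receptors 109 ± 9.99 CPM in G392E-NS and 115 ± 3.78 CPM in GFP libraries. For the Smads the sums were 96.4 ± 4.87 CPM in G392E-NS and 113 ± 6.40 CPM in GFP libraries (mean ± SD, n = 3 each, given without a test).

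**Figure D4:**
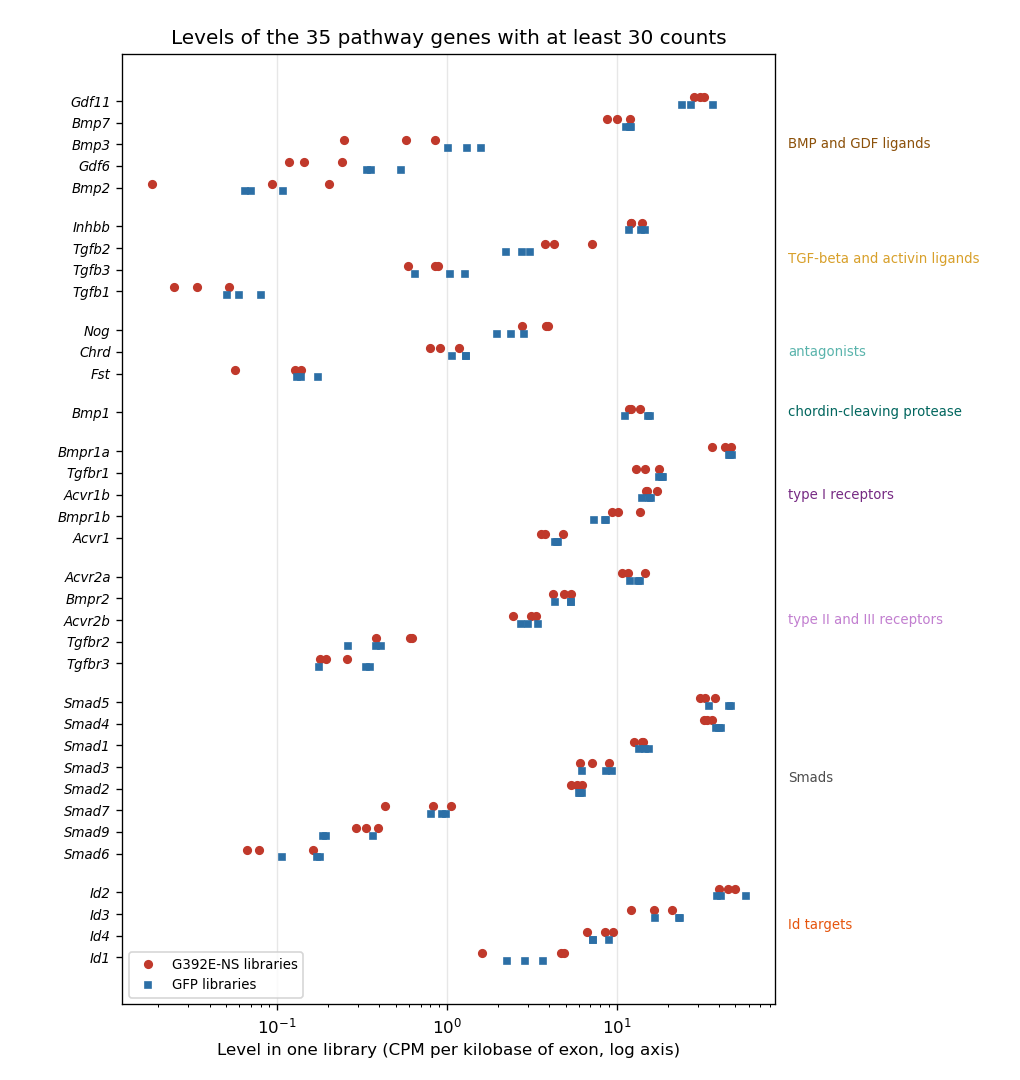
Level in each library in CPM per kilobase of exon (x axis, log scale) of the 35 pathway genes with at least 30 counts, by role, with G392E-NS libraries as red circles above and GFP libraries as blue squares below in each row. Id2, Bmpr1a, Smad5, Smad4 and Gdf11 lead, and Tgfbr2 and Tgfb1 lie far below Tgfbr1 and Tgfb2.

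Many ligands of the family were at or near 0. Of the 53 genes, 18 had under 30 counts in all. Bmp10, Gdf2 and Gdf5 had none in any library, which over the 6 libraries allows a level of up to 0.0242 CPM (3 counts, counting error only). Bmp4, a ligand used to drive astrocyte differentiation in culture, had 1 count in G392E-NS and 1 in GFP libraries, and Bmp5 had 0 and 1. Bmp2 had 26 counts in G392E-NS libraries, 17 of them in replicate 2, and 18 in GFP libraries, and fell under the low-count filter. With at least 30 counts in all as the filter, Bmp2 had an edgeR adjusted p of 0.741 and Tgfb1 of 0.345. Gdf15, a stress-induced family member, had 4 counts in G392E-NS and 1 in GFP libraries. Bmp6, Bmp8a, Bmp8b, Bmp15, Gdf3, Gdf7, Gdf9, Gdf10 and Inhba were also under 30 counts. So were the receptor genes Acvrl1, with 1 count in G392E-NS and 8 in GFP libraries, and Acvr1c, and the antagonist Grem1. Bmp8a and Bmp8b are close paralogues, and how reads were divided between them is uncertain.

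Other genes of the pathway, taken from lists outside the symbol rule, held a few calls. Of 83 such genes tested, 7 were higher and 2 were lower in G392E-NS libraries, where 4.79% and 1.36% of all genes were, with a median log2 fold change of −0.028. Among 13 TGF-beta target genes, 3 rose and 1 fell. Log2 fold changes were above 0 for 8 of them and below 0 for 5, from −1.16 to 3.66, with a list median of 0.64. Timp3, a metalloprotease inhibitor, had 164, 246 and 147 CPM in G392E-NS libraries and 40.1, 32.7 and 39.2 CPM in GFP libraries (log2 fold change 2.32, SE 0.20, adjusted p = 0.000797). Cdkn2b, a cell cycle inhibitor, had 5.11, 11.5 and 6.13 CPM in G392E-NS libraries, against 0.691, 0.401 and 0.684 CPM in GFP libraries (log2 fold change 3.66, SE 0.40, adjusted p = 0.00232). In both genes every G392E-NS library lay above every GFP library and the call held with each library left out in turn. Ccn2, a matricellular protein, rose to 5.43 ± 3.34 CPM in G392E-NS libraries, against 0.762 ± 0.216 CPM in GFP libraries (n = 3 each, edgeR adjusted p = 0.0146), and lost its call without GFP replicate 1 or 2 (0.0753 and 0.0602). G392E-NS replicate 2 had 9.29 CPM, against 3.62 and 3.39 CPM in the other G392E-NS libraries, and without it the log2 fold change of Ccn2 was 2.19 in place of 2.82 (adjusted p = 0.0101). The integrin gene Itga5 fell to 2.79 ± 0.429 CPM in G392E-NS libraries, against 5.54 ± 1.22 CPM in GFP libraries (n = 3 each, edgeR adjusted p = 0.0478), and lost its call in 5 of the 6 leave-one-out fits (0.0659 to 0.182), holding it without GFP replicate 3.

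Among 13 secreted modulators 2 rose, with a list median of 0.010. They were Htra1, a secreted protease known to restrain TGF-beta family signals, with 110, 171 and 171 CPM in G392E-NS libraries, against 57.7, 50.7 and 57.9 CPM in GFP libraries (log2 fold change 1.44, adjusted p = 0.00348), and Fstl5, a follistatin-like gene (log2 fold change 1.59, adjusted p = 0.0106, and 0.0577 without GFP replicate 1). Of 8 co-receptors and other ligands, Gpc3, a cell surface proteoglycan, and Tmem100, a membrane protein downstream of BMP signals in endothelium, rose by 1.76 and 1.53 on the log2 scale (adjusted p = 0.0297 and 0.0398, list median 0.29). Gpc3 lost its call in 5 of the 6 leave-one-out fits (0.0683 to 0.136), holding it without G392E-NS replicate 1, and Tmem100 lost its call in 4 (0.0701 to 0.157), holding it without G392E-NS replicate 3 or GFP replicate 3. None of 11 latency and activation genes, 24 Smad partners and inhibitors or 9 further BMP target genes passed, with edgeR adjusted p of at least 0.134, 0.155 and 0.0511 and list medians of −0.032, −0.073 and 0.37. The smallest were those of Fbn2, Ep300 and Gfap. Gfap, the astrocyte filament gene, had 2.99, 26.2 and 2.15 CPM in G392E-NS libraries and 0.403, 0.0502 and 0.642 CPM in GFP libraries, so that replicate 2 held most of its counts. It passed without G392E-NS replicate 1, 2 or 3 (adjusted p = 0.0347, 0.0473 and 0.0459), with log2 fold changes of 5.21, 2.78 and 5.26, and with at least 30 counts as the filter (0.0483) or none (0.000278). It did not pass without GFP replicate 1, 2 or 3 (0.172, 0.157 and 0.107), with limma-voom (0.148) or with the replicate block (0.160). Nor did Gfap pass with the other scalings, with at least 1 CPM in 3 libraries or with length and GC trends removed (0.0505 to 0.0555). DESeq2 gave no adjusted p for Gfap.

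The bHLH partners of the Id proteins showed 1 call among 10 tested, with a median log2 fold change of −0.11. Neurod1, which drives neuronal differentiation, fell to 0.629 ± 0.175 CPM in G392E-NS libraries, against 3.99 ± 1.20 CPM in GFP libraries (n = 3 each, log2 fold change −2.63, edgeR adjusted p = 0.00398), and kept its call with each library left out. Its span lies within that of Cerkl on the same strand, so its counts may hold reads of that gene. The E protein genes Tcf3 and Tcf4 and the oligodendrocyte lineage gene Olig2 did not pass (adjusted p = 0.899, 0.263 and 0.849).

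Markers of neural cell types held calls in the same libraries. Of 10 astrocyte markers, 5 rose (Aldh1l1, Slc1a2, Aldoc, Gjb6 and Fgfr3), with a list median log2 fold change of 1.34 and a summed level of 7783 to 12874 CPM in G392E-NS libraries, against 3379 to 4836 CPM in GFP libraries. Of these, Aldh1l1 lost its call without G392E-NS replicate 3 or any GFP replicate (0.0594 to 0.126), Aldoc without GFP replicate 1 or 2 (0.0886 and 0.055), and Slc1a2 without GFP replicate 2 or 3 (0.0638 and 0.0517). Gjb6 kept its call, with a log2 fold change of 3.68 over all libraries and 4.40 without GFP replicate 3 (adjusted p = 0.00882). Neuron markers summed to 3158 to 4363 CPM in G392E-NS and 3346 to 3874 CPM in GFP libraries, with 1 of 8 called (Gap43, higher). Progenitor markers summed to 4415 to 5183 CPM in G392E-NS and 4370 to 5186 CPM in GFP libraries, with Prom1 higher and Nes lower of 10. The Nes call did not hold in 5 of the 6 leave-one-out fits (0.0657 to 0.170). Oligodendrocyte lineage markers summed to 3032 to 5370 CPM in G392E-NS and 3458 to 4135 CPM in GFP libraries, with 2 of 9 called higher (Pdgfra and Mog), of which Pdgfra lost its call in 4 leave-one-out fits (0.0512 to 0.172) and Mog in 4 (0.0795 to 0.117), namely without G392E-NS replicate 2 or any GFP replicate in both. In bulk RNA, more cells of a type and more RNA per cell cannot be told apart, and the part of cell type makeup in the pathway values was not tested.

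Markers of microglia, endothelium, choroid plexus, and fibroblasts and mural cells were low in both groups. The 10 microglia markers summed to 0.0832 to 0.326 CPM in G392E-NS and 0.128 to 0.403 CPM in GFP libraries, the 10 endothelium markers to 1.17 to 2.29 CPM in G392E-NS and 1.97 to 2.25 CPM in GFP libraries, and the 10 choroid plexus markers to 1.70 to 2.45 CPM in G392E-NS and 1.56 to 2.48 CPM in GFP libraries. None of these passed the low-count filter in microglia (3 of the 10 had no counts), and 0 of 2 tested endothelium markers and the 1 tested choroid plexus marker were called (edgeR, smallest adjusted p = 0.880). Fibroblast and mural markers summed to 2.45 to 5.47 CPM in G392E-NS and 0.288 to 0.803 CPM in GFP libraries, with 2 of 10 tested and 1 higher, Twist1, which had no counts in GFP libraries.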

How the data were processed

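RNA of 6 libraries, 3 per group, was sequenced. The authors deposited unnormalised counts, in whole numbers for each Ensembl gene and library, as the values show. Per the submitters' processing notes, DESeq2 1.4.5, HTSeq 0.6.1, TopHat2 2.0.12, R 3.2.2 and GRCm38 were used, in roles not stated there. For the annotation, strand setting and filters the sources used here say nothing. Groups, replicates and columns were matched by title.

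Symbols, positions and exon lengths came from GENCODE release M21 (GRCm38), which paired 37693 of 39179 genes. Counts were tested with edgeR 4.0.16 in R 4.3.3: filterByExpr (13775 genes, 99.9% of counts), TMM scaling, a quasi-likelihood F test of the groups with no covariate, and Benjamini-Hochberg adjustment over all genes tested, with a threshold of 0.05. Each standard error is the fold change over the root of its F, and 95% intervals, unadjusted, use the moderated degrees of freedom. Levels per kilobase divide CPM by the union of exons. For 9 of the 33 members tested, exons overlap those of another gene on either strand. These are Tgfb2, Tgfb3, Chrd, Fst, Bmpr1a, Acvr2a, Tgfbr3, Smad5 and Id4. Replicates differed beyond sampling noise (chi-square per degree of freedom 8.02 to 56.4). The fit was tested on simulated data. Alternatives were DESeq2 1.42.0, limma-voom (limma 3.58.1), other scalings and filters, the replicate block, length and GC trends removed, and each library left out.

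The members and lists were chosen with earlier results of these data known. Values are given in full for called members, the Id genes, and in each role the member with the highest level per kilobase and that with the smallest p, and in other lists for up to 6 called members or the nearest one. Bmp3, Bmp7, Chrd, Tgfbr1 and Smad7 are given in full as well, outside that rule. Tests on lists were not made.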

Additional observations from a re-analysis of the deposited data

How the results depend on the processing

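Over the 16 alternatives, of which Fst and Smad6 had 15 since both fell under the filter of at least 1 CPM in 3 libraries, 29 of the 33 members were never called and 24 kept the sign of their fold change wherever they were fitted. The members called higher numbered 1 with DESeq2 and 1 with no low-count filter, and 0 to 1 with a library left out. Those called lower numbered 1 with DESeq2, 1 with length and GC trends removed and 2 with no low-count filter, and 0 to 2 with a library left out. The calls with a left-out library all came without G392E-NS replicate 1 (Tgfb2, Bmp3 and Tgfbr1). Over all genes, 1103 were higher and 354 lower with DESeq2, 1205 and 374 with no low-count filter, 217 and 50 with the replicate block, and 196 to 981 and 46 to about 3.9e+02 with a library left out. Pathway genes outside the symbol rule numbered 12 higher and 4 lower with no low-count filter, 3 and 1 with the replicate block, and 4 lower with DESeq2. They numbered 1 lower with limma-voom, and 3 to 8 higher and 1 to 3 lower with a library left out. With the replicate block the calls of Ccn2, Itga5, Fstl5, Gpc3 and Tmem100 were lost (edgeR adjusted p = 0.0551 to 0.147). Those of Timp3, Cdkn2b, Htra1 and Neurod1 held. Among the markers, the block took the calls of Aldh1l1, Slc1a2, Aldoc, Nes and Pdgfra (0.0725 to 0.121). Those of Gjb6, Fgfr3, Gap43, Prom1, Mog and Twist1 held. Itga5 and Aldh1l1 also lost their calls with limma-voom (adjusted p = 0.0544 and 0.0523). The cause of these shifts was not tested, and a fit with a library left out also has fewer samples.

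Members that changed sign had log2 fold changes of −0.22 to 0.087 over all libraries. With total-count scaling Gdf11 stood at −0.0091 and Acvr1b at −0.0065, and with length and GC trends removed Acvr2a stood at 0.0025 and Bmpr2 at 0.16. With a library left out, the log2 fold change ranged from −0.071 to 0.24 for Gdf11, −0.13 to 0.17 for Id2, −0.023 to 0.21 for Id4, −0.285 to 0.0025 for Smad3, −0.53 to 0.052 for Smad7, −0.007 to 0.097 for Acvr1b, −0.23 to 0.012 for Acvr2a, −0.17 to 0.029 for Bmpr2 and −0.15 to 0.091 for Acvr2b. Total-count scaling moved the median of all genes by −0.062. Replicate numbers are shared between the groups. The labels do not say that they mark a shared culture or day, so the numbers were not taken as pairs. Deviations of same-numbered libraries from their group means correlated at 0.034, −0.383 and −0.255, and no G392E-NS library correlated best with its own number. With 3 libraries per group such correlations are tied to one another, so they cannot exclude a pairing. With the replicate block no member was called, as without it. Length of the longest transcript in place of the exon union moved no member by more than 2 places in the order of levels. Depth limits the 18 members under 30 counts, which were not tested.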

Other observations

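GFP replicate 3 stood apart from the other GFP libraries in several pathway genes, a pattern noticed after the values were seen and given without a test. The genes named were picked for it. Others did not show it, as Bmpr1a (303, 292 and 297 CPM in GFP replicates 1 to 3). Over the whole table, chi-square per degree of freedom was 18.2 and 24.1 between GFP replicate 3 and GFP replicates 1 and 2. It was 8.02 between those and 37.0 to 56.4 between G392E-NS libraries. GFP replicate 3 had 140 CPM of Id2, against 94.6 and 100.3 CPM in GFP replicates 1 and 2, and 149 CPM of Gdf11, against 112 and 98.8 CPM. In the other direction it had 30.2 CPM of Id3, against 41.5 and 42.4 CPM, 258 CPM of Smad5, against 349 and 342 CPM, and 99.7 CPM of Bmp1, against 136 and 140 CPM. Id2 and Id3 thus differed in opposite directions between libraries of the same group, by more than their group means differed between G392E-NS and GFP cells.

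Per 100 counts of Nog there were 714, 757 and 616 counts of Bmp7 in G392E-NS libraries, against 1186, 1448 and 953 in GFP libraries. Neither Bmp7 nor Nog passed by itself (edgeR adjusted p = 0.365 and 0.200). The other antagonists tested, Chrd and Fst, had log2 fold changes of −0.34 and −0.40, opposite in sign to the 0.55 of Nog, and did not pass. The ratio of the ligand Bmp7 to the antagonist Nog is free of the scaling between libraries, was chosen after the values were seen, and has no test. Other count ratios taken overlapped between the groups. Tgfb2 per 100 Tgfb3 was 736, 2079 and 866 in G392E-NS and 372, 366 and 814 in GFP libraries. Id1 per 100 Id3 was 18.3, 8.54 and 15.0 in G392E-NS and 8.06, 10.1 and 8.65 in GFP libraries. Tgfbr2 per 100 Tgfbr1 was 2.69, 5.27 and 5.85 in G392E-NS and 2.54, 2.89 and 1.77 in GFP libraries.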
